A study of Mus musculus with 30 samples.

Results

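Cell cycle phase was examined in 30 single mouse cells through 40 genes that mark its steps. The cells were taken as primordial germ cells (PGCs), the precursors of eggs and sperm. The genes were chosen by name for what they do in the cycle, and all 40 were found among the 18194 genes named on the array. They comprised 17 genes of the G1/S transition and DNA replication (S phase), 15 genes of G2 and mitosis (G2/M) and 8 cyclins, cyclin-dependent kinases (CDKs) and CDK inhibitors that act in G1. The cells came from C57BL/6 embryos at E7.25-E7.5 whose parents were both *Prdm14*+/-. *Prdm14* encodes a transcriptional regulator that PGCs need for their specification. Cells at the base of the allantois, where PGCs arise, were picked one by one, their cDNA was amplified, *Prdm1*-positive cells were taken as PGCs, and each was hybridised to its own Affymetrix mouse array. The deposit labels 13 cells as *Prdm14*+/+ (WT), 13 as *Prdm14*+/- (Het) and 4 as *Prdm14*-/- (KO). The array codes fall into 3 runs: run 1 with 10 WT cells, run 2 with 3 WT and 7 Het cells, and run 3 with 6 Het cells and the 4 KO cells. The labels do not say which embryo a cell came from, so a label stands for 1 sample, every SD is one between cells, and the comparisons carry no p-value.

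A dividing cell copies its DNA in S phase and separates the copies in mitosis, with the gaps G1 and G2 between them. D-type cyclins with CDK4 and CDK6, and then cyclin E with CDK2, release E2F transcription factors, which switch on the replication genes, while p21 and p27 hold these kinases back. Genes of G2 and mitosis are transcribed later in the cycle, largely through promoter elements called CHR and CCAAT boxes, and their transcripts are low in G1, so that single cells caught at different points of the cycle differ in them. PGCs at this stage are few and descend from dividing epiblast cells, and their cycle is known to slow in the days after specification.

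The promoters of the member genes are shown because they separate the S-phase genes from the G2/M genes without any expression value. RefSeq promoters (GRCm38.p6, 250 bases before to 50 after the transcription start) were held for 31 of the 40 members. An E2F site, taken as TTTGGCGC, TTTCCCGC, TTTCGCGC or TTTGCCGC on either strand, was found in 8 of 14 S-phase promoters (57.1%) and in 1 of 11 G2/M promoters (9.09%), against 2.6% of all 27025 genes. A CHR, taken as TTTGAA or TTCGAA on either strand, was found in 9 of 11 G2/M promoters (81.8%) and in 2 of 14 S-phase promoters (14.3%), against 21.7% of all genes. CCAAT boxes were common to both, in 10 of 11 G2/M and 10 of 14 S-phase promoters, against 41.1% of all genes. Of the 6 G1 members with a promoter, 1 held an E2F site and 0 held a CHR. Genes of the same phases that are not members showed the same division, with an E2F site in 8 of 20 S-phase genes (40%) and 2 of 35 G2/M genes (5.71%), and a CHR in 4 of 20 (20.0%) and 26 of 35 (74.3%). A match to these letters is a description of the sequence and not evidence of binding.

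The promoters of *Mcm3* (chr1:20820263-20820562, minus strand) and *Mcm6* (chr1:128359656-128359955, minus strand), subunits of the helicase that opens the DNA for replication, show the S-phase pattern, with the E2F sites in capitals. In *Mcm6* a pair of the 3 matches overlaps.
*Mcm3*: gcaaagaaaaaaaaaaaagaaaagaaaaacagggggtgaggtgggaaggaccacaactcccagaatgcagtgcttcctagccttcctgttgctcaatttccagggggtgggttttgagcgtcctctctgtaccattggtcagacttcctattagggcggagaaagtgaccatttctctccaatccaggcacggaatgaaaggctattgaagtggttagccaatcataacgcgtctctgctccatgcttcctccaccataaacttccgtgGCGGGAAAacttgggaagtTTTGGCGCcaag
*Mcm6*: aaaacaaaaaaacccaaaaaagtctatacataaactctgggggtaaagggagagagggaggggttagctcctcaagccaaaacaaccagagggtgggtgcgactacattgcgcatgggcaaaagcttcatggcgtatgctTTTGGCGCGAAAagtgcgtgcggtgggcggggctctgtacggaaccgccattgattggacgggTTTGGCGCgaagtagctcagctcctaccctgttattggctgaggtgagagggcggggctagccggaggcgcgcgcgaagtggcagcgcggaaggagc
The promoters of *Ccnb2* (cyclin B2, chr9:70421505-70421804, minus strand) and *Mki67* (the proliferation antigen Ki-67, chr7:135716330-135716629, minus strand) show the G2/M pattern, with CHRs and CCAAT boxes in capitals. The promoter of *Cdk1*, the mitotic kinase (chr10:69352863-69353162, minus strand), held all 3 elements, and its E2F site is in capitals too.
*Ccnb2*: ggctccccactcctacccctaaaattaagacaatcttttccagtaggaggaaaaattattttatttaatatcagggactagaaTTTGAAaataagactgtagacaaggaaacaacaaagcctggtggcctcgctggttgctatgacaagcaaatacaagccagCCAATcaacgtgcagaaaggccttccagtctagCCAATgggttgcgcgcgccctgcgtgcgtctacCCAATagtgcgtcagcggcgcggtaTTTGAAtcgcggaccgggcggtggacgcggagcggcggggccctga
*Mki67*: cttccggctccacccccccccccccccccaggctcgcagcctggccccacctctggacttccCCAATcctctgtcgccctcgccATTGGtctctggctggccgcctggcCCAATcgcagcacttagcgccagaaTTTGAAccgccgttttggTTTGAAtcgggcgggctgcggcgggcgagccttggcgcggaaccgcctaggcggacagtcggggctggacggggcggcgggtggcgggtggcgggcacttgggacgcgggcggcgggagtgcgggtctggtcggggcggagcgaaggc
*Cdk1*: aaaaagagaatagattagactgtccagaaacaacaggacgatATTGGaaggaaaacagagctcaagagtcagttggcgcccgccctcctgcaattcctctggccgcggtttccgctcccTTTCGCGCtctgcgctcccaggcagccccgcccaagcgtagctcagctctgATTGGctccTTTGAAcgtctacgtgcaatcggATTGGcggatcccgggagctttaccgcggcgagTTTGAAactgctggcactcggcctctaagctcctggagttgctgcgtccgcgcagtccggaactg

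**Figure D1:**
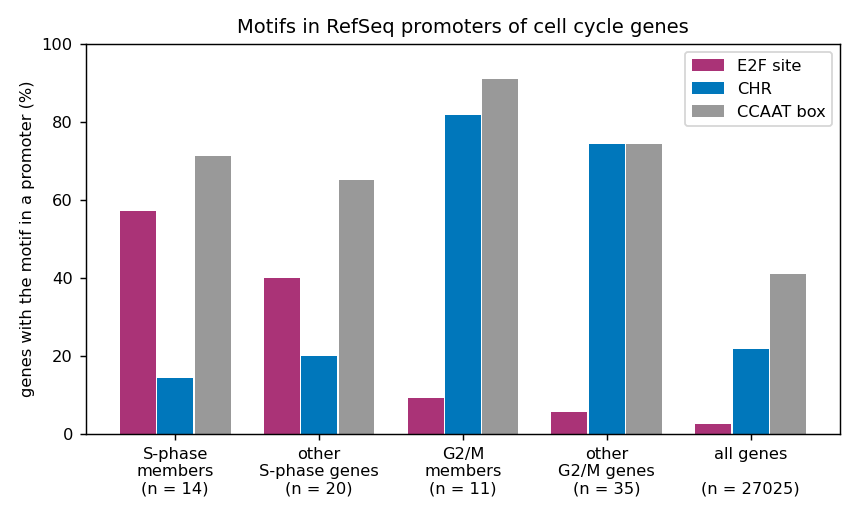
Share of genes with an E2F site, a CHR or a CCAAT box in a RefSeq promoter (y axis, percent), for S-phase and G2/M members, other genes of both phases and all genes (x axis, with the number of genes that have a promoter). E2F sites were in 57.1% of S-phase members and 9.09% of G2/M members, and CHRs in 14.3% and 81.8%.

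Values are the authors' log2 model-based expression index (MBEI). Values under 6 (64 MBEI) were set to that floor, at which a weak transcript cannot be told from an absent one and no ranking holds. Differences were taken between means of floored values, and "higher" or "lower" below means by at least 1. Between 9856 and 14204 of 45101 probe sets were above the floor in a cell. Of 9 germ cell markers, *Ifitm3*, *Alpl* and *Prdm1*, by which cells were taken, were above the floor in 30 of 30 cells. *Kit* was in 28, *Dnd1* in 27, *Tfap2c* in 26, *Dppa3* in 24, *Prdm14* in 22 and *Itgb3* in 4. In a cell, 5 to 8 of the 9 were above it in WT, 3 to 9 in Het and 8 to 9 in KO. Of 3 markers of pluripotency, *Pou5f1* was above the floor in 30 cells, *Nanog* in 27 and *Sox2* in 20. Of 5 markers of blood and endothelium, *Hbb-bh1* and *Gata1* were at the floor in all 30, and *Tal1* was above it in 2 cells, *Pecam1* in 5 and *Kdr* in 10. Of 5 endoderm markers, *Ttr*, *Afp* and *Apoa1* were at the floor in all 30, *Foxa2* was above it in 3 cells and *Sox17* in 23. Of 4 markers of extraembryonic ectoderm, *Elf5* was above the floor in 0 cells, *Esx1* in 1, *Eomes* in 2 and *Cdx2*, which is also on the somatic mesoderm list, in 30. Of 14 somatic mesoderm markers, 6 to 12 were above the floor in a cell, and the mean of that list ranged from 8.10 to 9.47 over WT cells, from 7.66 to 9.89 over Het cells and from 7.88 to 9.04 over KO cells. Het cells 78 and 100 and WT cell 61 had 5, 3 and 5 of the 9 germ cell markers above the floor. *Dppa3* and *Tfap2c* were at the floor in each of them. They had 10, 12 and 10 somatic mesoderm markers above it, and whether they are germ cells was not tested. The transcript of *Prdm14* ran against the labels, with means of 7.40 ± 1.85 (SD, n = 13) in WT, 9.70 ± 1.93 (SD, n = 13) in Het and 11.40 ± 0.98 (SD, n = 4) in KO cells. The sources used here do not place this probe set inside or outside the deletion, and outside it the transcript would not check the labels. *Dppa3* and *Sox2*, a pair of transcripts of the germ line and of pluripotent cells, had their means in the same order. *Dppa3* was 9.05 ± 2.01 (SD, n = 13) in WT, 10.23 ± 2.87 (SD, n = 13) in Het and 12.55 ± 0.38 (SD, n = 4) in KO cells, and *Sox2* was 7.58 ± 2.11, 9.73 ± 2.56 and 12.48 ± 0.23. Whether the labels are right was not tested. All directions below are therefore those of cells labelled WT, Het and KO, and every KO and WT comparison also crosses array runs.

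The core replication genes were on, that is above the floor, in every cell, whereas mitotic and G1 genes varied from cell to cell. Of the 40 members, 14 were above the floor in all 30 cells, and 38 were in at least 15. Among all 18194 genes, 1711 were above the floor in all 30 cells and 7202 in at least 15. The 14 were 10 of the 17 S-phase genes (*Mcm2* to *Mcm7*, *Pcna*, *Rrm1*, *Cdt1* and *Gmnn*), 2 of the 15 G2/M genes (*Cdc20*, which activates the anaphase-promoting complex, and *Top2a*, the topoisomerase that disentangles chromosomes) and 2 of the 8 G1 genes (*Ccnd3* and *Cdk4*). The 6 *Mcm* helicase genes ranged from 9.71 to 13.18 over all cells, with an SD between cells of 0.13 (*Mcm7*) to 0.58 (*Mcm4*). The median SD was 0.56 over the S-phase genes, 1.37 over the G2/M genes and 1.62 over the G1 genes. The members above the floor in the fewest cells were *Cdk6*, in 7 cells, and *Tyms*, which makes thymidylate for DNA, in 11. In *Tyms* the other probe sets were above the floor in 0 to 7 cells. Among the remaining S-phase genes, *Rrm2*, the regulated subunit of ribonucleotide reductase, was above the floor in 27 cells. *Ccne1* and *Ccne2*, which encode the E cyclins, were in 25 and 19 cells, and *Cdc25a*, a phosphatase that activates CDK2, was in 24. *Cdc6* and *Orc1*, which load the helicase at origins, were in 17 and 23.

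**Figure D2:**
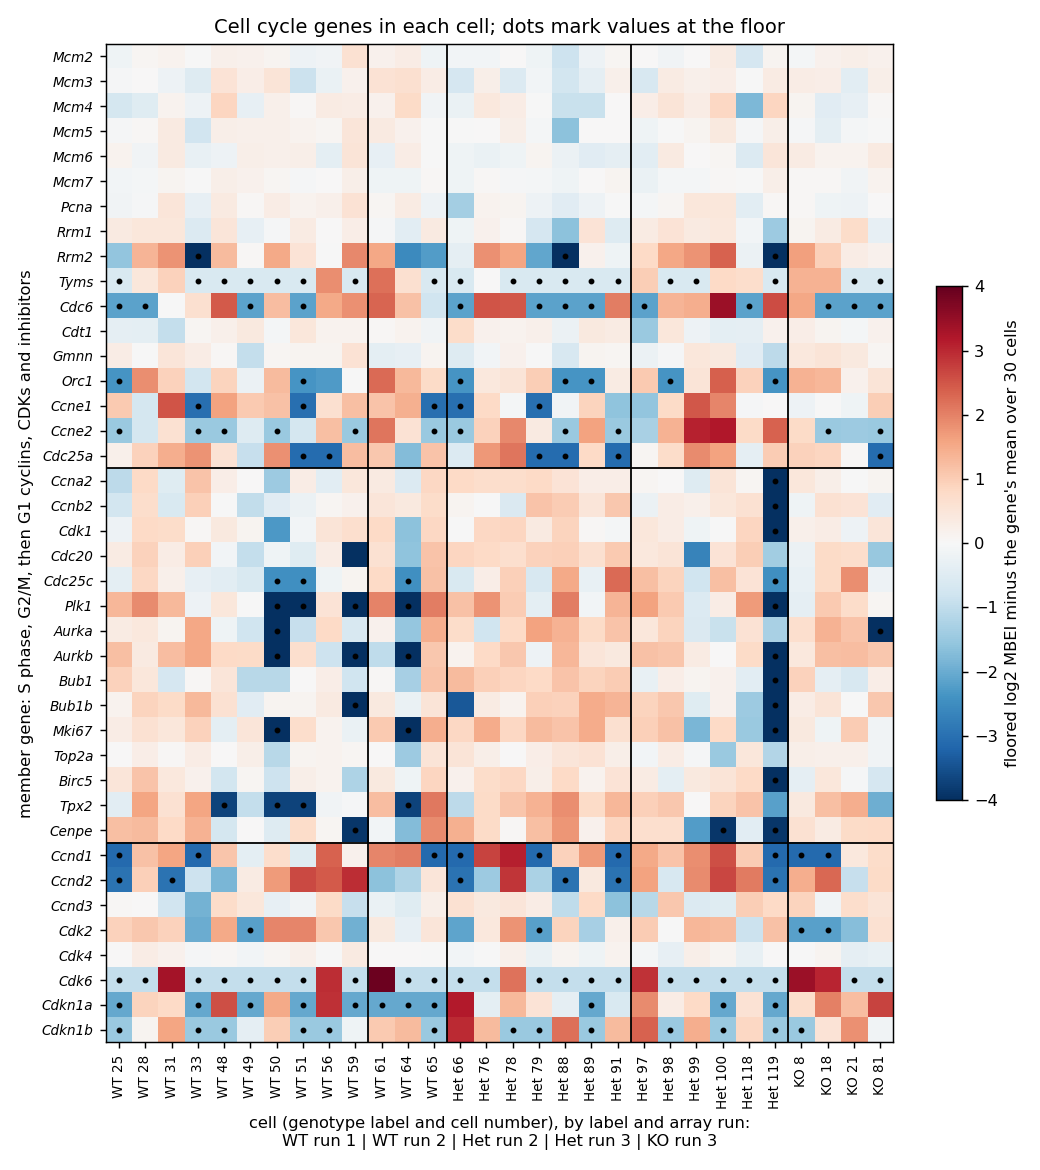
Floored log2 MBEI of each member (rows, by list) minus that gene's mean, in each cell (columns, by label and array run), with dots at values on the floor and differences past 4 drawn as 4. The *Mcm* rows hardly vary, while Het cell 119 and WT cells 50, 59 and 64 hold columns of low G2/M values.

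A phase score was given to each cell, namely the mean over a list of each gene's value minus that gene's mean over the 30 cells, so that no probe set was compared with another. The G2/M score was near its upper end in most cells and far below in a few. Over the 30 cells its lowest, median and highest values were -3.79, 0.33 and 1.19, and those of the S-phase score were -1.29, -0.05 and 1.09. All 15 G2/M genes were above the floor in 22 of the 30 cells, that is in 6 of 10 WT cells of run 1, 2 of 3 WT cells of run 2, 7 of 7 Het cells of run 2, 4 of 6 Het cells of run 3 and 3 of 4 KO cells. The 4 lowest G2/M scores were in Het cell 119 (-3.79), WT cell 50 (-2.11), WT cell 64 (-1.95) and WT cell 59 (-1.57), and the next was WT cell 51 at -0.62. These cells spread over all 3 runs and 2 labels, and none was labelled KO. The highest G2/M scores were in WT cell 65 (1.19) and Het cell 88 (1.18), and cell 88 also had the lowest S-phase score. The highest S-phase scores were in Het cell 100 (1.09) and WT cell 61 (0.77). In these cells 3 and 5 of the 9 germ cell markers were above the floor, and *Dppa3* and *Tfap2c* were at it.

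In Het cell 119, 11 of the 15 G2/M genes were at the floor. They included both mitotic cyclins (*Ccna2* and *Ccnb2*), *Cdk1*, the kinases *Plk1*, *Aurkb*, *Bub1* and *Bub1b*, the kinetochore motor *Cenpe*, *Mki67* and *Birc5* (survivin). *Top2a* at 11.35, *Cdc20* at 10.76, *Aurka* at 9.10 and *Tpx2*, the spindle protein that activates Aurora A, at 7.54 remained above it. In the same cell 14 of 17 S-phase genes were above the floor, with *Mcm7* at 13.18 and *Cdc6* at 10.73. Its germ cell transcripts were high, with *Prdm1* at 11.83, *Dppa3* at 12.12 and *Pou5f1* at 11.93, although *Tfap2c* was at the floor. WT cell 50 had 6 G2/M genes at the floor and WT cell 64 had 5, and both lists held *Cdc25c*, *Plk1*, *Aurkb*, *Mki67* and *Tpx2*. In WT cell 59 the genes at the floor were *Plk1*, *Aurkb*, *Bub1b* and *Cenpe*, and *Cdc20* was at 6.88, its lowest value, while *Cdk1* at 12.40 and *Ccnb2* at 11.66 were not low.

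Fewer probe sets were above the floor in these cells, and the part of detection in their scores was not tested. The counts were 10983 in cell 119, 10802 in cell 50, 11444 in cell 64 and 9861 in cell 59, against a mean of 12245 over the 30 arrays. Het cell 66, with 9856, had all 15 G2/M genes above the floor. Across the 30 cells the G2/M score and the number of probe sets above the floor had a Pearson's r of 0.53 and a Spearman's rho of 0.58. Within label and run r was 0.62, and without the 2 cells farthest from the median it was 0.50. Other G2/M genes, which are not members, followed the same cells: over 37 of them, the score correlated with that of the members at r = 0.93 and rho = 0.90 (r = 0.92 within label and run, and 0.91 without the 2 cells farthest from the median). In cells 119, 50 and 64, 21 of these 37 were above the floor, and in cell 59 26 were. These correlations, and those below, describe 30 cells in which every pair of measures shares an array and its detection, and they carry no p-value.

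**Figure D3:**
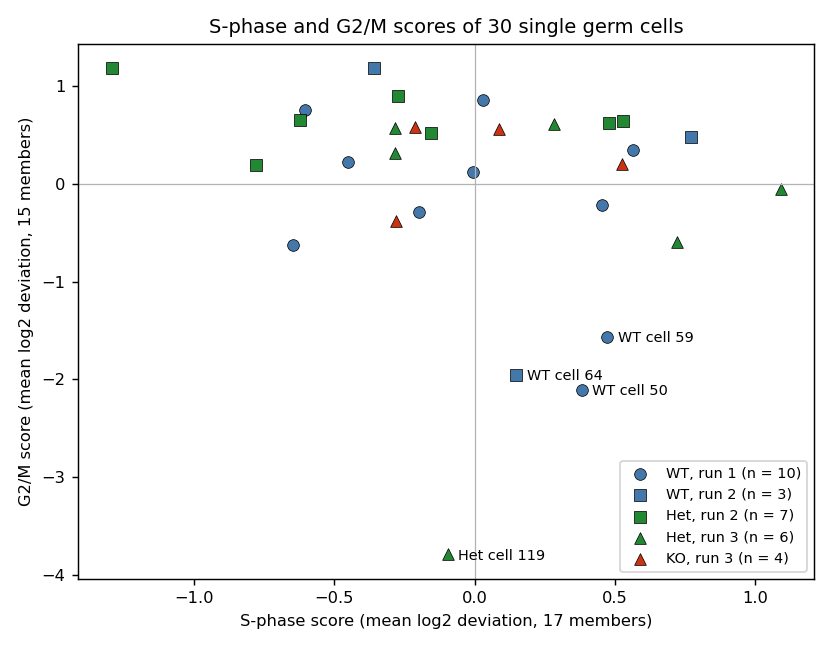
S-phase score (x axis) against G2/M score (y axis), both as mean log2 deviation, for each of the 30 cells by label and array run. Het cell 119 and WT cells 50, 64 and 59 lie between -3.79 and -1.57 on the G2/M axis, below every other cell, and the 4 KO cells lie between -0.38 and 0.58.

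The G2/M genes varied together, while the S-phase list held genes that did not. Each G2/M gene correlated with the mean of the other 14 at an r of 0.58 (*Bub1b*) to 0.83 (*Mki67*), and 15 of 15 were over 0.5. Of the 17 S-phase genes 8 were over 0.5, and r ranged from -0.17 for *Cdt1*, which licenses origins in G1, to 0.70 for *Pcna*, the clamp of the replicating polymerase. The S-phase score correlated with that of 27 other S-phase genes at r = 0.76 and rho = 0.72. The S-phase and G2/M scores were only weakly opposed, at r = -0.22 and rho = -0.27 (r = -0.11 within label and run). The opposition was plainer for the *Mcm* genes, a subset taken after its values were seen. Against the G2/M score, r was between -0.38 (*Mcm3*) and -0.55 (*Mcm6*) for each of the 6. Their mean score gave r = -0.59 and rho = -0.54, or r = -0.55 within label and run and -0.57 without the 2 farthest cells. Of the 4 cells with the lowest G2/M scores, cell 59 had the highest *Mcm* score of all 30 cells (0.39), cell 119 the next (0.37), cell 64 the one after (0.33) and cell 50 ranked 6 (0.22). Cell 88, with the next to highest G2/M score, had the lowest *Mcm* score (-0.75). The *Mcm* score had an r of -0.20 with the number of probe sets above the floor. The S-phase score also ran against the mean of 9 germ cell markers, at r = -0.55 and rho = -0.43 (r = -0.62 within label and run), but the other S-phase genes did so at r = -0.29 and the *Mcm* genes at r = -0.22, and that of the G2/M score was 0.07.

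By genotype label, the phase scores overlapped throughout. The G2/M scores of KO cells 8, 18, 21 and 81 were 0.21, 0.57, 0.58 and -0.38, and their S-phase scores were 0.53, 0.09, -0.21 and -0.28. Over the 13 WT cells the lowest, median and highest G2/M scores were -2.11, 0.12 and 1.19, and the S-phase scores were -0.65, 0.03 and 0.77. All 4 KO cells lay within the WT range on both axes. KO minus WT was 0.46 for the G2/M score (pooled SD 0.98) and -0.01 for the S-phase score (pooled SD 0.45). With the run as a block, which leaves only the 3 WT cells of run 2 to stand for WT, these became 1.5 and -0.70. Here and below, a block value equals KO minus Het within run 3 plus Het minus WT within run 2. It is not a separate observation and rests on the same single cells as those differences. Within run 3, KO minus Het was 0.73 for the G2/M score (pooled SD 1.36) and -0.21 for the S-phase score (pooled SD 0.50). Without Het cell 119 the G2/M difference was 0.07.

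With all cells and no block, the largest differences in both scores were those between the Het cells of run 2 and run 3, which share a label. The G2/M score was higher in run 2 by 1.16 (pooled SD 1.16) and the S-phase score differed by -0.54 (pooled SD 0.62). Without cell 119 the G2/M difference was 0.50. Within run 2, Het minus WT was 0.77 for the G2/M score (pooled SD 0.87) and -0.49 for the S-phase score (pooled SD 0.64). The 3 WT cells of this run, cells 61, 64 and 65, had G2/M scores of 0.48, -1.95 and 1.19, against a lowest, median and highest of 0.20, 0.64 and 1.18 over the 7 Het cells. The difference rested on single WT cells, since the value was -0.16 without cell 64 and 1.41 without cell 65. For the S-phase score it was -0.20 without cell 61 and -0.76 without cell 65. The balance of S-phase minus G2/M score differed by -1.26 (pooled SD 1.15) between Het and WT in run 2 and by -1.70 (pooled SD 1.30) between the Het runs. The value in run 2 was -0.35 without WT cell 64 and -2.17 without WT cell 65. The balance differed by -0.94 (pooled SD 1.39) for KO minus Het, or -0.35 without Het cell 119, and -0.47 (pooled SD 1.17) for KO minus WT.

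Counted gene by gene, 4 of the 40 members were higher and 3 were lower in KO than in WT cells (10% and 7.5%), where 7.9% of all genes were higher and 4.32% lower. KO against Het within run 3 gave 7 higher and 5 lower (17.5% and 12.5%), against 8.6% and 5.62% of all genes. Het against WT within run 2 gave 6 higher and 4 lower (15% and 10%), against 6.02% and 8.3%. The Het cells of run 2 against those of run 3 gave 9 higher and 4 lower (22.5% and 10%), against 4.45% and 5.16%, and the WT cells of run 1 against run 2 gave 4 higher and 2 lower (10% and 5%), against 4.58% and 7.36%. Members are detected in more cells than most genes. Among the 7202 genes above the floor in at least 15 cells, the shares were 13.9% higher and 8.66% lower for KO against WT, 15.5% and 10.3% for KO against Het, and 11.1% and 15.6% for Het against WT in run 2. They were 8.79% and 10% for the Het runs, and 9.01% and 13.4% for the WT runs. For KO against WT, the members' shares lay between those of all genes and those of the widely detected genes. In KO against Het, the shares of higher and of lower members both lay above those of all genes. They were near those of the widely detected genes, at 17.5% against 15.5% and 12.5% against 10.3%. In Het against WT of run 2, the share higher lay above both (15% against 6.02% and 11.1%), and the share lower lay between them. Without Het cell 119, 3 members instead of 7 were higher in KO than Het, and in Het run 2 against run 3 the counts were 3 higher and 7 lower. Of the widely detected genes, 14.4% were then higher in KO than Het. Between the Het runs 8.05% of them were then higher and 10.9% lower. Single cells also decided other counts. The members higher in KO than WT numbered 2 without KO cell 18 and 8 without KO cell 81. Of the widely detected genes, 14.7% and 15.9% were then higher. The members higher in Het than WT of run 2 numbered 1 without WT cell 64 and 11 without WT cell 65, where 10.7% and 16.2% of those genes were higher. The members lower numbered 1 without WT cell 61 and 7 without WT cell 65, where 18.5% and 16.3% were lower. Between the WT runs, 2 were higher and 10 lower without WT cell 64, 1 was lower without WT cell 61 and 8 without WT cell 65.

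By phase, the G2/M genes leaned to one side with all cells in, least in KO against WT. Within run 2, within run 3 and between the Het runs, the lean rested largely on Het cell 119 or WT cell 64. For KO against WT no WT cell was left out, so the part of single WT cells was not tested. Of the 15, 2 were higher in KO than WT (*Aurkb* and *Plk1*), 5 in KO than Het of run 3, 5 in Het than WT of run 2 and 9 in Het of run 2 than of run 3, and 0 were lower in any of these. The shares higher were 13.3%, 33.3%, 33.3% and 60%, against 13.9%, 15.5%, 11.1% and 8.79% of the widely detected genes. Their median differences were 0.23, 0.82, 0.78 and 1.10, where the median of all genes was 0. The medians of the widely detected genes were 0.12, 0.10, -0.08 and -0.02. Without Het cell 119, 1 G2/M member was higher in KO than Het, with a median of -0.04, and 3 were higher in Het of run 2 than of run 3, with a median of 0.21. These were 6.67%, against 14.4% of the widely detected genes, and 20%, against 8.05%. Without WT cell 64, 0 were higher and 1 was lower in Het than WT of run 2, with a median of -0.13, while without WT cell 65 10 were higher, with a median of 1.34. The shares without WT cell 64 were 0% higher and 6.67% lower, against 10.7% and 19.4% of the widely detected genes. Without WT cell 65 the share higher was 66.7%, against 16.2%. In KO against WT 1 was higher without KO cell 18 or cell 21 (6.67%, against 14.7% and 16.6%) and 5 without KO cell 81 (33.3%, against 15.9%). Between the WT runs 1 was higher and 0 were lower, with a median of -0.26. Of the 17 S-phase genes, 0 were higher and 1, 3, 3 and 3 were lower in the comparisons of the G2/M shares above, with medians of -0.00, 0.04, -0.36 and -0.36. The shares lower were 5.88%, 17.6%, 17.6% and 17.6%, against 8.66%, 10.3%, 15.6% and 10% of the widely detected genes. The 3 S-phase genes lower in Het than WT of run 2 became 1 without WT cell 61 and 5 without WT cell 65. These were 5.88%, against 18.5% of the widely detected genes, and 29.4%, against 16.3%. The 3 S-phase genes lower between the Het runs became 5 without Het cell 119 (29.4%, against 10.9%). The *Mcm* genes stayed within 0.25 of WT in KO cells. The comparisons share cells, so that their counts are not separate observations.

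**Figure D4:**
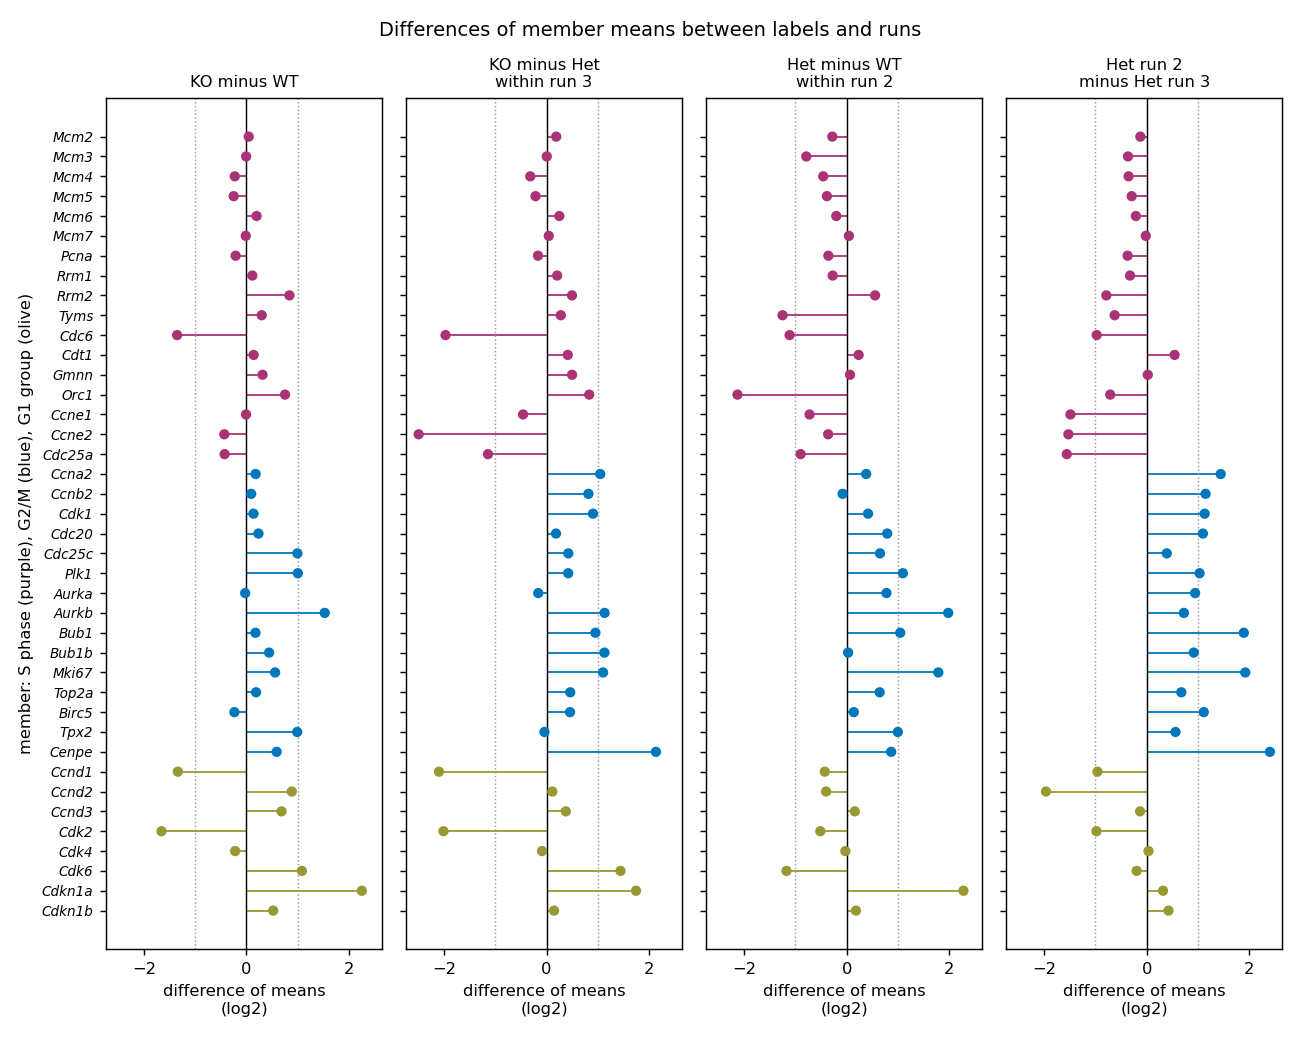
Difference of mean floored log2 MBEI (x axis) for each member (y axis, coloured by list) in 4 comparisons of labels and runs, with dotted lines at a difference of 1 in either direction. With all cells in, G2/M members lean right in each panel, most in the Het runs, where all 15 are above 0 and 9 are past 1 (3 without Het cell 119). *Cdkn1a* is the member farthest to the right for KO minus WT, at 2.25.

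The CDK inhibitor *Cdkn1a* (p21), which halts cells in G1 and after DNA damage, was the member that differed most between KO and WT cells by the probe set used. KO cells 8, 18, 21 and 81 had values of 8.75, 10.06, 9.27 and 10.77. The 13 WT cells had a lowest, median and highest of 6.00, 6.00 and 10.98, with 8 at the floor, and all 3 WT cells of run 2 were among these. *Cdkn1a* was above the floor in 4 of 4 KO cells, 4 of 6 Het cells of run 3 (6.00, 8.48 and 9.95), 6 of 7 Het cells of run 2 (6.00, 7.70 and 11.21) and 5 of 10 WT cells of run 1. The KO cells overlapped the 5 WT cells in which the gene was on. The difference was 2.25 for KO minus WT (pooled SD 1.83), 1.75 for KO minus Het within run 3 (pooled SD 1.39) and 2.28 for Het minus WT within run 2 (pooled SD 1.43), and its size depends on the floor. Blocking by run took the KO minus WT value to 4.03. The other probe set of *Cdkn1a*, above the floor in 6 cells, gave -0.42, -0.99 and 0 for the same comparisons. With the mean over both, KO minus WT was 0.92 and KO minus Het was 0.38, each short of the limit of 1. *Cdkn1b* (p27) was above the floor in 17 cells and differed by 0.52, 0.15 and 0.18.

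Among the D cyclins, *Ccnd1* had a lower mean in KO cells, which rested on the 2 cells at the floor, and *Ccnd2* and *Ccnd3* differed by less than 1 between labels. KO cells 8, 18, 21 and 81 had *Ccnd1* values of 6.00, 6.00, 9.54 and 9.84. The lowest, median and highest values were 6.00, 9.83 and 11.48 in the 13 WT cells and 6.00, 10.44 and 11.68 in the 6 Het cells of run 3. In both labels these ranges covered all 4 KO cells. KO minus WT was -1.34 (pooled SD 2.04), KO minus Het was -2.10 (pooled SD 2.06) and Het minus WT in run 2 was -0.43 (pooled SD 2.9). KO minus WT was -0.73, short of the limit of 1, without KO cell 8 and likewise without KO cell 18, and it was -2.53 with the run as a block. Het minus WT in run 2 had the other sign, at 0.41 and 0.45, without WT cell 61 or 64, and was -2.13 without WT cell 65. The other *Ccnd1* probe sets gave -0.24 and -1.80 for KO minus WT, and -0.85 and -2.77 for KO minus Het. *Ccnd2* differed by 0.89, 0.11 and -0.40 in these comparisons, but by -1.97 between the Het runs. *Ccnd3*, on in every cell, differed by 0.68, 0.38 and 0.16.

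Of the kinases, *Cdk4*, the partner of the D cyclins, was the steadiest, between 11.92 and 12.63 in all 30 cells. *Cdk2*, the partner of cyclins E and A, was lower in KO cells. Its values were 6.00, 6.00, 6.47 and 8.77 in KO cells 8, 18, 21 and 81. The lowest, median and highest were 6.00, 9.09 and 10.12 in WT cells and 7.32, 9.26 and 9.51 in Het cells of run 3. The KO cells lay within the WT range, and 3 of the 4 were below every Het cell of run 3. The differences were -1.66 (pooled SD 1.43) for KO minus WT, -2.01 (pooled SD 1.08) for KO minus Het and -0.51 (pooled SD 1.35) for Het minus WT in run 2. With a floor of 8 the KO minus WT value became -0.72 and the KO minus Het value -0.75, and with the mean over all *Cdk2* probe sets they became -0.83 and -1.01. The block took KO minus WT to -2.53. *Cdk6* was on in 7 cells only, and KO cells 8 and 18 were among them, at 10.36 and 9.98, while cells 21 and 81 were at the floor. The others were WT cells 31, 56 and 61 and Het cells 78 and 97, between 9.10 and 10.85. KO minus WT was 1.08 (pooled SD 2.02), KO minus Het was 1.45 (pooled SD 1.93) and Het minus WT in run 2 was -1.17 (pooled SD 1.73), and the last became 0.44 without WT cell 61. KO minus WT fell short of the limit, at 0.33 without KO cell 8, 0.45 without KO cell 18 and 0.27 with the run as a block, and was 1.78 without either of the other KO cells. KO minus Het was likewise 0.69 without cell 8 and 0.81 without cell 18. In KO cells 8 and 18, *Cdk6* was on while *Ccnd1* and *Cdk2* were at the floor, and cells 21 and 81 showed the reverse, a pattern singled out after its values were seen. In the 5 other cells with *Cdk6*, *Ccnd1* was also on, between 10.63 and 12.22.

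**Figure D5:**
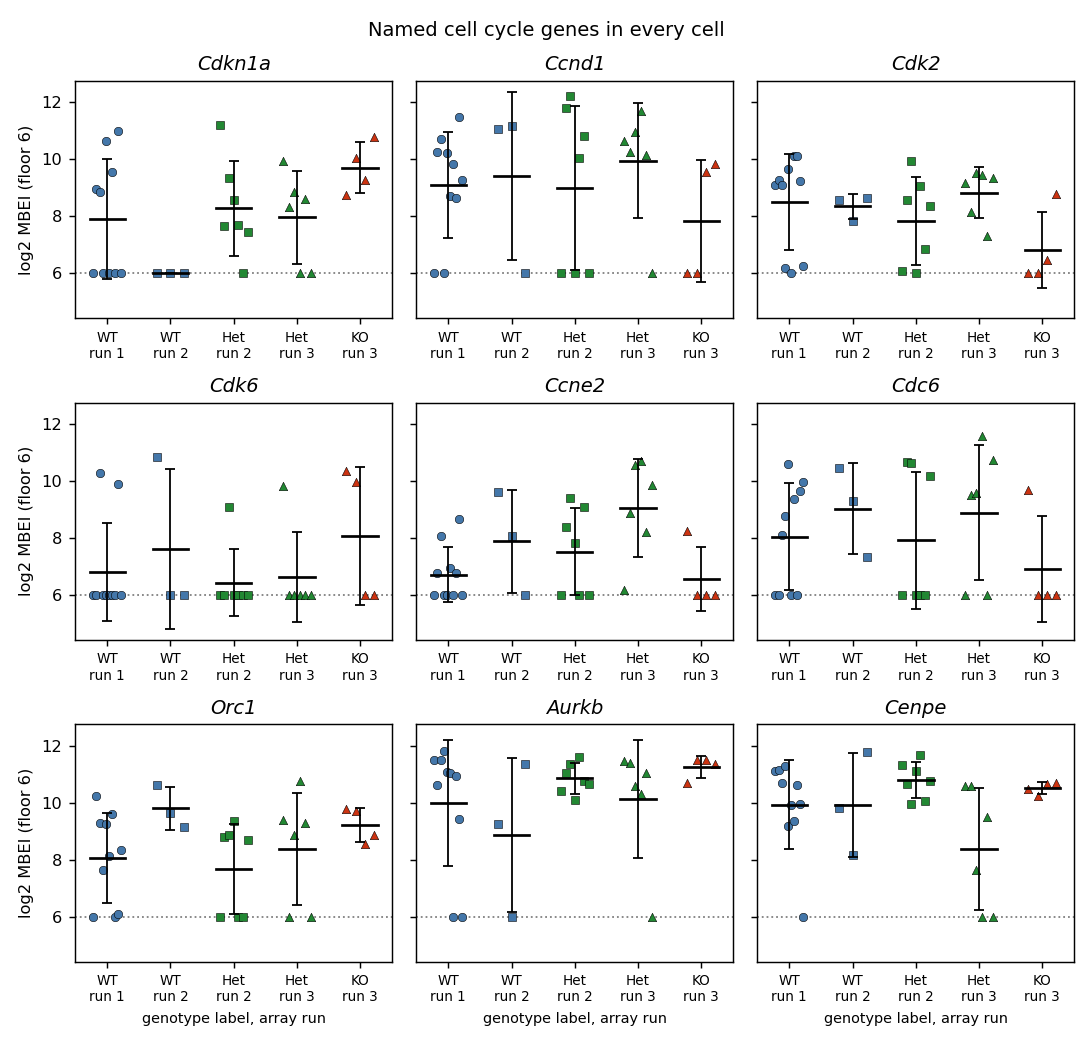
Floored log2 MBEI (y axis, floor 6 dotted) of 9 members in every cell, by label and array run (x axis), with the mean and SD as bars. *Cdkn1a* was above the floor in all 4 KO cells and in 0 of the 3 WT cells of run 2, and most panels mix cells at the floor with cells above 8.

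Among the S-phase genes, *Cdc6*, *Ccne2* and *Orc1* met the limit for cell-by-cell values. *Cdc6* was 9.70, 6.00, 6.00 and 6.00 in KO cells 8, 18, 21 and 81, and its lowest, median and highest values were 6.00, 8.79 and 10.60 in WT cells and 6.00, 9.54 and 11.57 in Het cells of run 3. It was thus at the floor in 3 of 4 KO cells, 4 of 13 WT cells and 2 of 6 Het cells of run 3. The differences were -1.35 (pooled SD 1.82) for KO minus WT, -1.97 (pooled SD 2.19) for KO minus Het and -1.11 (pooled SD 2.23) for Het minus WT in run 2. KO minus WT was -2.28 without KO cell 8 and -3.09 with the run as a block, and -0.52 with a floor of 8. Het minus WT in run 2 was -0.40 without WT cell 61, -0.98 without WT cell 64 and -1.97 without WT cell 65. *Ccne2* was 8.24, 6.00, 6.01 and 6.00 in the KO cells, against 6.18, 9.36 and 10.69 in Het cells of run 3 and 6.00, 6.76 and 9.61 in WT cells. Cells 18, 21 and 81 lay below every Het cell of run 3, and the KO cells lay within the WT range. KO minus Het was -2.50 (pooled SD 1.51) and KO minus WT was -0.43 (pooled SD 1.21). Blocking by run took the latter to -2.86, past the limit, and without KO cell 8 it was -0.99.

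*Orc1*, the largest subunit of the origin recognition complex, differed in run 2. WT cells 61, 64 and 65 had values of 10.63, 9.65 and 9.14, and the 7 Het cells had a lowest, median and highest of 6.00, 8.70 and 9.36. Of the 7 Het cells, 6 lay below all 3 WT cells, and the difference was -2.13 (pooled SD 1.42). It was -0.55 with the mean over both *Orc1* probe sets. In KO cells *Orc1* was 9.77, 9.70, 8.55 and 8.87, and KO minus WT was 0.75 (pooled SD 1.46). With the run as a block it was -1.30, of the opposite sign and past the limit of 1, so no direction is given for *Orc1* between KO and WT cells.

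Among the G2/M genes, *Aurkb*, the kinase that corrects the attachment of chromosomes to the spindle, was high and even in KO cells, at 10.70, 11.49, 11.51 and 11.34. In WT cells its lowest, median and highest values were 6.00, 10.93 and 11.81, and in Het cells of run 3 they were 6.00, 10.81 and 11.45. The differences were 1.53 (pooled SD 2.02) for KO minus WT and 1.13 (pooled SD 1.65) for KO minus Het, and the block took the first to 3.12. The cells at the floor were 3 WT cells and Het cell 119, and without the latter KO minus Het was 0.31. Within run 2, Het minus WT was 1.99 (pooled SD 1.42), or 0.55 without WT cell 64 and 3.23 without WT cell 65. *Cenpe*, the motor that moves chromosomes to the metaphase plate, was 10.50, 10.24, 10.66 and 10.69 in the KO cells. It was 6.00, 8.57 and 10.58 in Het cells of run 3, where cells 100 and 119 were at the floor. WT cells had 6.00, 9.97 and 11.79, a range that covered the KO cells. KO minus Het was 2.14 (pooled SD 1.69) and remained 1.66 without cell 119, and KO minus WT was 0.59 (pooled SD 1.39), or 3.01 with the run as a block. The other *Cenpe* probe set, above the floor in 8 cells, gave -0.04 for KO minus Het and -0.12 for KO minus WT, and the mean over both gave 1.05 and 0.23.

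Of 100 other measured genes of the cycle, 13 differed by at least 1 with the same sign in KO minus WT and in KO minus Het within run 3, which share the 4 KO cells. That is 13%, against 7.08% of all genes and 12.9% of the widely detected genes. The G2/M genes again leaned one way with all cells in. Of 37, 9 were higher and 0 lower in KO than WT, 9 and 0 in KO than Het, 16 and 2 in Het than WT of run 2, and 18 and 0 in Het of run 2 than of run 3, with medians of 0.26, 0.54, 0.66 and 0.93. The shares higher were 24.3%, 24.3%, 43.2% and 48.6%, against the 13.9%, 15.5%, 11.1% and 8.79% of widely detected genes given above. Without Het cell 119, 5 were higher in KO than Het (13.5%, against 14.4% of widely detected genes) and 5 in Het of run 2 than of run 3 (13.5%, against 8.05%). Without WT cell 64, 1 was higher and 2 were lower in Het than WT of run 2 (2.7% and 5.41%, against 10.7% and 19.4%). In KO against WT, 8 to 10 were higher and 0 to 2 lower when each KO cell was left out in turn, with all WT cells in. The shares higher were 21.6% to 27%, against 14.7% to 16.6% of widely detected genes. Of 27 other S-phase genes 2, 2, 2 and 0 were higher and 2, 3, 5 and 6 were lower. These were 7.41%, 7.41%, 7.41% and 0% higher, and 7.41%, 11.1%, 18.5% and 22.2% lower. Of 36 regulators 5, 8, 3 and 4 were higher and 1, 1, 7 and 4 were lower. These were 13.9%, 22.2%, 8.33% and 11.1% higher, and 2.78%, 2.78%, 19.4% and 11.1% lower. Of the widely detected genes, 8.66%, 10.3%, 15.6% and 10% were lower in these comparisons, and the shares higher are those given above.

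The largest of the 13 was *Kif11*, the spindle motor that keeps the poles apart, between 10.89 and 11.56 in the KO cells. It was above the floor in 6 of 13 WT cells, and KO minus WT was 3.31 (pooled SD 1.96) and KO minus Het 2.64 (pooled SD 1.61). All 4 KO cells lay above every Het cell of run 3, and 1 lay above every WT cell. *Rb1*, the retinoblastoma protein that holds E2F in check, was on in 4 of 4 KO cells, between 8.17 and 11.23, but in 1 of 13 WT cells, 1 of 6 Het cells of run 3 and 1 of 7 of run 2. All 4 KO cells lay above every WT cell and 1 above every Het cell of run 3, where the highest was 9.77. *Rb1* differed by 3.15 from WT (pooled SD 0.65) and by 2.59 from Het (pooled SD 1.48), sizes that depend on the floor.

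Of the 13, 10 were higher and 3 lower in KO cells, and the 10 with the largest smaller difference are described. Besides *Kif11* and *Rb1*, the described genes higher in KO cells were *Hmmr*, a spindle protein, by 1.48 from WT and 1.61 from Het, *Cenpf*, a kinetochore protein, by 1.30 and 2.06, and *Ung*, which removes uracil from DNA, by 1.30 and 1.39. *Mdm2*, which marks p53 for degradation, was higher by 1.33 and 1.48, and *Fzr1*, an activator of the anaphase-promoting complex in G1, by 1.12 and 1.87. Lower in KO cells were *Gins2*, a subunit of the replicative helicase, by -1.86 and -2.55, *Uhrf1*, which recruits the maintenance DNA methyltransferase to replicated DNA, by -2.02 and -1.45, and the proliferation factor *Myc*, by -1.28 and -2.21. *Myc* was at the floor in all 4 KO cells and in 7 of 13 WT cells. *Uhrf1* ranged from 6.00 to 8.56 in KO cells, within the WT range of 6.00 to 11.27, and Het minus WT in run 2 was -2.07, with all 7 Het cells below all 3 WT cells. For KO minus WT, *Mdm2*, *Gins2* and *Uhrf1* exceeded their pooled SDs of 1.19, 1.46 and 1.77, and the other 5 did not. For KO minus WT, *Mdm2* was 0.90 without KO cell 81, *Fzr1* was 0.99 without KO cell 18 and *Ung* was 1.99 without KO cell 81. For KO minus Het, *Uhrf1* was -0.86 without KO cell 8 and *Cenpf* was 1.29 without Het cell 119.

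Control probe sets of amplification also moved with the labels and the runs. For the 5′ end of *Gapdh*, the control probe set had means of 13.10 ± 0.23 (SD, n = 13) in WT, 12.77 ± 0.32 (SD, n = 13) in Het and 12.54 ± 0.31 (SD, n = 4) in KO cells, and that for its 3′ end had means of 13.36, 13.25 and 13.20. For the 5′ end of actin the means were 9.80 ± 0.73, 9.37 ± 0.93 and 8.94 ± 0.93 in the same cells. Between the runs, the 5′ end of *Gapdh* was 13.29 in WT cells of run 2, 12.65 in Het cells of run 2 and 12.90 in Het cells of run 3. The 3′ end of actin was 12.42, 11.70 and 12.42 in these cells, and its 5′ end was 10.24, 9.12 and 9.66. The 9 germ cell markers had list means of 7.62 to 11.10 in WT, 7.34 to 11.40 in Het and 11.14 to 11.93 in KO cells. The part of these controls and markers in the differences above was not tested. Array run and label cannot be told apart for KO and WT cells, since no run held both.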

How the data were processed

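The authors amplified the cDNA of each picked cell, hybridised it to an Affymetrix Mouse Genome 430 2.0 array and deposited model-based log2 values (MBEI), which dChip 1.3 fitted to the difference of perfect-match and mismatch probes. Any scaling between arrays is not given in the sources read. A mean of 63.7% of an array's 45101 probe sets stood at 0. Names came from the platform's annotation, in which 34958 had 1 symbol, 932 had several and 9211 had none listed, and a gene's brightest probe set, by its mean over the 30 arrays, stood for it. Values were floored at 6. Each cell is 1 array and no embryo is named, so differences of means are given with SDs between cells and no test. The number of arrays limits their precision. A count of cells at the floor measures detection, not absence. Members and lists were chosen with earlier results of these data known. The cell-by-cell members were G1 genes with a difference of at least 1 between labels, and S-phase and G2/M genes with at least 1 of the same sign in both KO comparisons or at least 2 in any genotype comparison. From the other cycle genes, the 10 with the largest smaller difference of both KO comparisons were named. Some other genes and markers of the lists are not reported here. Promoters came from RefSeq for GRCm38.p6. Other settings tried were floors of 4 and 8, quantile normalization, a shift to the mean of the 3239 probe sets above 0 on all arrays, medians over cells, the run as a block, averaging a gene's probe sets and leaving out single cells. Differences of means and the run block were tested on simulated data, and the scores on the measured values with a known shift added. The software was pandas 2.3.3 and NumPy 2.4.6 under Python 3.11.15, with figures drawn in matplotlib 3.10.9.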

Additional observations from a re-analysis of the deposited data

Results flagged for a closer look

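In 48 groups of 4 to 10 cells, made of the phase scores and the 9 members with printed values within each label and run, 9 held a cell whose gap to the next value was beyond Dixon's critical value, and chance marks about 1 in 20 groups. Het cell 119 stood apart from the Het cells of run 3 in the G2/M score, at -3.79 with the next at -0.59, in *Ccnd1*, at 6.00 with the next at 10.14, and in *Aurkb*, at 6.00 with the next at 10.30. KO cell 81 stood apart in *Cdk2*, at 8.77 with the next at 6.47. KO cell 8 stood apart in *Cdc6*, at 9.70 with all others at the floor of 6.00, and in *Ccne2*, at 8.24 with the next at 6.01. *Cdk6* was on in a single cell of each Het run, at 9.10 in cell 78 and 9.84 in cell 97, with the others at the floor. WT cell 59 stood apart from the WT cells of run 1 in *Cenpe*, at 6.00 with the next at 9.20. Many of these groups hold cells at the floor, where a single detected value is enough to stand apart.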

How the results depend on the processing

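Of 141 alternative values of the 15 score differences, 137 moved by less than the pooled SD and 4 moved by more. Most of these differences were smaller than their pooled SD, so a difference could vanish and still count as moved by less. The G2/M score of KO minus Het did so, at 0.73 with all cells and 0.07 without Het cell 119. This tally, and that of the named genes below, where many differences were also smaller, therefore does not measure stability. Blocking by run took KO minus WT to -0.70 for the S-phase score, 1.5 for the G2/M score and -2.20 for their balance. These block values are sums of the genotype differences within the runs and add no separate observation. Leaving out WT cells of run 2 in turn gave -0.16 to 1.41 for the G2/M score of Het minus WT in run 2. Of 279 alternative values for the named genes, 270 moved by less than the pooled SD, 8 by more, and among differences of at least 1 *Cdk6* for Het minus WT in run 2 changed sign, to 0.44, without WT cell 61 (leaving out each WT cell of run 2 in turn gave -1.98 to 0.44). Counting differences under 1 and medians of 0, 8 values of named genes did not keep their sign: besides the others given with the genes, *Orc1* was -1.30 for KO minus WT under the block, and in run 2 *Ccne2* was 0.50 without WT cell 61, *Cdk2* was 0.16 with a floor of 8, *Cenpe* was -0.01 without WT cell 64 and the median for *Cdk6* was 0. Of the score differences, 8 values had the other sign, 5 of them between the WT runs. Counts of members were held to another limit, and 38 of 94 were beyond 1.5 times. With a floor of 4, 8 members were higher in KO than WT, 11 in KO than Het, 8 were lower in Het run 2 than run 3 and 6 in WT run 1 than run 2. With a floor of 8, the members higher and lower were 2 and 0 (KO minus WT), 2 and 3 (KO minus Het), 3 and 1 (Het minus WT in run 2), 5 and 1 (Het runs) and 2 and 1 (WT runs). The mean over all probe sets gave 2 higher in KO than WT, 3 in KO than Het, 2 in WT run 1 than run 2, and 2 lower in Het than WT in run 2. Medians gave 2 higher in KO than WT, 3 in KO than Het, 3 in Het than WT in run 2, 5 in Het run 2 than run 3, and 8 lower in WT run 1 than run 2. The block gave 12 higher and 7 lower in KO than WT. Leaving out single KO or WT cells gave 2 to 8 higher in KO than WT, 2 to 3 lower, 5 to 9 higher and 4 to 5 lower in KO than Het, 1 to 11 higher and 1 to 7 lower in Het than WT in run 2, and 2 to 5 higher and 1 to 10 lower between the WT runs. Without Het cell 119, chosen after its values were seen, 3 were higher in KO than Het, and 3 were higher and 7 lower in Het run 2 than run 3. These counts lie near a limit of 1 that many members straddle, and the cause of single moves was not tested. No paired analysis was possible because the replicate numbers follow accession order and no embryo is named. Weak transcripts near the floor limit what can be read from the members that vary most.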
